A study of Mus musculus with 4 samples.

Results

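The stefin A gene cluster of the mouse was followed through the neutrophil stages of 4 single-cell RNA libraries. Its 7 members, Stfa1, Stfa2, Stfa2l1, Stfa3, Cstdc4, Cstdc5 and Cstdc6, were taken by name from the 32285 genes of the count tables, and each has a row in all 4 of them. They were chosen by measured values of these libraries, namely their high UMI counts in mature neutrophils, so levels by stage are given as a description, without a test. Because near-identical copies can share reads, the summed UMIs of the 7 genes (the family sum) are given beside the single genes.

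Stefins are small cystatins that stay inside the cell and block cysteine proteases of the papain family, such as the lysosomal cathepsins B, L and S. Rodents carry several stefin A genes side by side, whereas the related stefin B (Cstb) is a single gene found in most cell types. Neutrophils mature in the bone marrow from dividing progenitors that fill primary granules (Mpo, Elane), through cells that fill secondary granules (Ltf, Camp, Ngp), to mature cells that carry Cxcr2, the receptor for chemokines that draw them into tissue.

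All 4 groups came from mice of 1 genotype, in which a changed receptor kinase of sensory neurons can be blocked by the small molecule 1NMPP1, so the vehicle animals carry the changed allele too. The vehicle groups received a DMSO-containing solution. The 1NMPP1 groups were injected into the abdomen at 17 µg per g, from a 5 mM solution, 48 h and 2 h before surgery on the growth plate, and were then kept on drinking water containing it at 40 µM. Each group is 1 library: growth plate with vehicle, growth plate with 1NMPP1, lumbar dorsal root ganglia with vehicle, and lumbar ganglia with 1NMPP1. Growth plate samples were the end of the femur around the injury, and ganglia were taken 7 days after it; no day is stated separately for the growth plates. The sources used here state neither age nor how many animals went into a library, but each library held male-called and female-called cells and so pooled animals. With 1 library per group there was no replicate spread and no test. Intervals below are exact 95% counting intervals, and they cover neither the spread between animals nor that between cells.

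The libraries held 32790205 to 139703885 UMIs (counted RNA molecules), and 2146 to 10519 cells passed the filters. Any pair of libraries shared 4 to 40 cell barcodes, at most 0.418% of the smaller library. Cells were grouped without the members, and groups were named from stage markers. In the growth plate these were progenitor-like cells (Elane, Prtn3, Mpo lead the cluster), cycling granule cells (Chil3, Fcnb, Camp, with more secondary-granule genes than division genes in the lead), granule cells (Ltf, Lcn2, Camp), late granule cells (Mmp8, Mmp9, Retnlg with Ltf), early mature cells (Retnlg, Mmp8, Cxcr2), mature cells (Cxcl2, Il1b, Cxcr2) and a mature cluster, number 13, in which a set of interferon-induced genes was also high. Together they held 4788 vehicle and 6060 1NMPP1 growth plate cells. In the ganglia, 362 and 482 cells fell into cycling granule (with Elane and Prtn3 also in the lead), granule and mature groups, and the mature group there still had Ngp and Lcn2 among its leading genes. The ganglion mature group scored almost as high for granule genes as for mature genes, which in the growth plate would have been called early mature, so stages of the same name are not matched between the tissues. A cluster with both Prtn3, Mpo and the monocyte genes F13a1 and Ms4a6c was left unnamed. B lineage cells (Ebf1, Cd79a), which are not known as a source of stefin A, served as the background for free RNA.

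In the GENCODE annotation of GRCm38, the 7 members lie on chromosome 16 between positions 36156811 and 36455392, a stretch of 299 kb with Csta3 and Csta2, further cystatin genes, in between. On the plus strand are Stfa2l1 (ENSMUSG00000059657, chr16:36156811-36161953), Cstdc4 (ENSMUSG00000079597, chr16:36184212-36188111) and Stfa1 (ENSMUSG00000071562, chr16:36276951-36285373). On the minus strand are Cstdc6 (ENSMUSG00000079594, chr16:36321665-36334332), Cstdc5 (ENSMUSG00000071561, chr16:36359382-36367748), Stfa2 (ENSMUSG00000022902, chr16:36403992-36408457) and Stfa3 (ENSMUSG00000054905, chr16:36450537-36455392). The promoters of the 4 members that supplied most family UMIs are shown because the members were high at the same stages and because their leading gene changed: Stfa1 led the family sum from progenitor-like to granule cells, and Cstdc4, followed by Stfa2l1, led it in mature cells. Each line runs 5′ to 3′ from 100 bases before the RefSeq start to 20 after it (GRCm38.p6), and the capitals mark the A+T-rich motif TTTAAAA. The Stfa1 and Cstdc5 windows lie inside the GENCODE gene spans given above, so RefSeq and GENCODE place those starts differently.

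Stfa1 (chr16:36277048-36277167, plus strand): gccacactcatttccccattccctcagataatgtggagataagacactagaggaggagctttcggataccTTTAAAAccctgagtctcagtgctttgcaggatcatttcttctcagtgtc
Cstdc5 (chr16:36367551-36367670, minus strand): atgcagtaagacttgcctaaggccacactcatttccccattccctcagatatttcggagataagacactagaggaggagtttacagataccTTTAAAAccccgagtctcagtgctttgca
Cstdc4 (chr16:36184112-36184231, plus strand): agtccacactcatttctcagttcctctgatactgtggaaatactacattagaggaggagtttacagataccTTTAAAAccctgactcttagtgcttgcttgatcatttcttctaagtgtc
Stfa2l1 (chr16:36156711-36156830, plus strand): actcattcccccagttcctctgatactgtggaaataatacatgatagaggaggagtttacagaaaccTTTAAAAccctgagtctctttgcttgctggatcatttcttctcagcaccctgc

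RefSeq promoters of 300 bases were found for 6 of the 7 members, Cstdc6 being the exception. All 6 held TTTAAAA on the forward strand, against 8.74% of 32851 promoters searched on both strands, and its first base was 29 to 33 bases before the start except in Cstdc5, where it was 9 bases before. TTGCNNAA, the core letters bound by C/EBP factors, was in the Stfa1 and Cstdc5 promoters and in 10.8% of all promoters. GAGGAAG, as bound by the myeloid factor PU.1, was on the reverse strand of 3 of the 6 (Cstdc4, Stfa1 and Cstdc5) and on either strand in 13.6% of all. The 3 motifs do not overlap one another in these promoters. These matches describe letters in this window and were not tested as binding sites. The motifs were not part of the planned comparisons, and the 6 promoters resemble one another, with pairs from 70.3% to 96.4% identical. Matches in the 6 are thus not separate finds, and nothing is read from their share beside that of all promoters. The Stfa1 and Cstdc5 promoters were 96.4% identical, those of Stfa2 and Stfa2l1 92.9%, and those of Cstdc4 and Stfa2l1 76.5%.

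The transcripts are as close. Stfa1 and Cstdc5 were 98.1% identical over 421 aligned bases, Stfa2 and Stfa2l1 95.7% over 373, and Cstdc5 and Cstdc6 95.3% over 387. Of all stretches of 90 bases, used here as a stand-in for a read, Cstdc5 shared 16.6% with Cstdc6 or Stfa1, Cstdc6 16.4% with Cstdc5, Cstdc4 15.4% with Csta2, Stfa1 4.24% with Cstdc5, Stfa2 2.09% and Stfa2l1 2.42% with each other, and Stfa3 none. With stretches of 60 bases, Cstdc4 shared 31.0%, Cstdc6 27.7%, Cstdc5 26.4%, Stfa1 17.4%, Stfa2l1 16.9%, Stfa2 10.2% and Stfa3 none. Reads from the shared stretches could be split or dropped in counting, and dropped reads would be missing from the family sum too. The values of all members but Stfa3 are thus uncertain as single genes, those of Cstdc4, Cstdc5 and Cstdc6 the most. A UMI stands for a molecule rather than a length of RNA, and the transcripts are of like size (387 to 619 bases), so CPM (UMIs per 1000000 UMIs of the cell group) was compared between members without division by length.

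The family sum was low through the granule stage, far higher from the late granule stage on, and highest in mature cells. In the vehicle growth plate library it was 118 CPM in progenitor-like, 204 in cycling granule, 61.3 in granule, 918 in late granule, 2431 in early mature and 3724 CPM in mature cells. In the 1NMPP1 growth plate library the same stages held 49.5, 54.5, 73.6, 469, 1682 and 3026 CPM. Both libraries had the same order from granule cells upward, and no neighbouring pair of those stages had overlapping intervals. Mature cluster 13 lay just below the other mature cells, at 3540 and 2832 CPM. Within the mature stage, cluster 3 (Retnlg, Mmp9, Il1f9) held 4076 and 3203 CPM and cluster 0 (Cxcl2, Acod1, Il1b) 3420 and 2908. Before the granule stage the order differed between the libraries: with vehicle, cycling granule and progenitor-like cells were above granule cells, and with 1NMPP1 they were below them, with overlapping intervals of their own. That order depended on the doublet step: with no barcode removed, the log2 ratio of granule over cycling granule cells was -0.85 with vehicle and -0.77 with 1NMPP1, against -1.73 and 0.43.

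**Figure D1:**
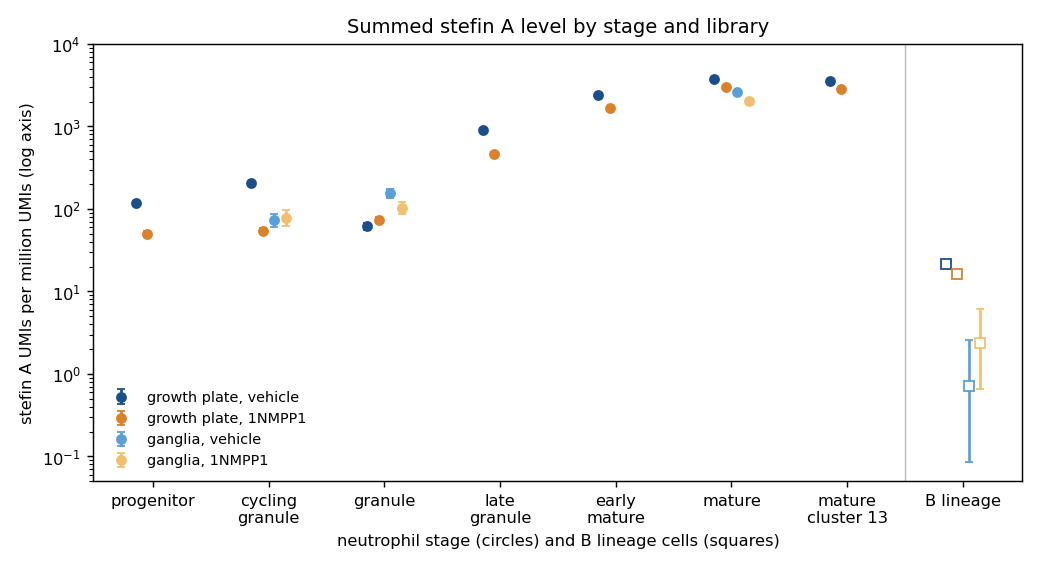
Family sum of the 7 stefin A genes (CPM, log axis) in each neutrophil stage and in B lineage cells, 1 point per library with its exact 95% Poisson interval. All 4 libraries are at 2010 CPM or more in mature cells and at 204 CPM or less in granule and earlier stages.

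The background set a floor in the growth plate. B lineage cells there held 21.5 (vehicle) and 16.4 (1NMPP1) CPM of family UMIs, while ganglion B lineage cells held 0.705 and 2.40 CPM, from 2 and 4 UMIs. The lowest growth plate stages, granule cells with vehicle and progenitor-like cells with 1NMPP1, stood above that background. A UMI of any member was seen in 27.7% and 33.8% of progenitor-like cells (median 25210 and 31763 UMIs per cell), but also in 20.7% and 26.9% of cells of the unnamed Prtn3 and F13a1 cluster, which was as deeply counted (25801 and 29361) and held 23.7 and 10.9 CPM. Shares of progenitor-like cells with a UMI are therefore near background. In mature cells, with 3746 and 4118 UMIs per cell, 66.3% and 62.8% had a member UMI, against 12.5% and 13.1% of B lineage cells, which were deeper (5802 and 7197). With every cell thinned to 1000 UMIs, the shares were 56.4% and 51.6% of mature cells and 2.61% and 2.13% of B lineage cells.

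The mix of members differed between early and mature stages. Stfa1 was the leading gene in progenitor-like cells (46.5% of family UMIs in vehicle, 65.2% in 1NMPP1), in cycling granule cells (54.3% and 48.3%) and in granule cells (40.6% and 43.5%). Its near-copy Cstdc5 supplied another 38.8% and 36.7% in vehicle progenitor-like and cycling granule cells, and 7.37% and 23.5% in the 1NMPP1 ones. In mature cells Cstdc4 led with 46.2% and 44.5%, followed by Stfa2l1 with 29.9% and 31.0%, Stfa1 with 13.1% and 15.7% and Cstdc5 with 6.98% and 5.93%. Cstdc4 supplied 8.85% and 12.5% in granule cells, 22.1% and 18.5% in late granule cells and 38.1% and 33.3% in early mature cells. In B lineage cells, the background, Cstdc4 supplied 41.4% and 47.7%, Stfa1 24.2% and 15.7% and Stfa2l1 22.5% and 24.6%. Cstdc4 thus led as in mature cells, with less Stfa2l1 in both libraries and more Stfa1 in the vehicle library alone.

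**Figure D2:**
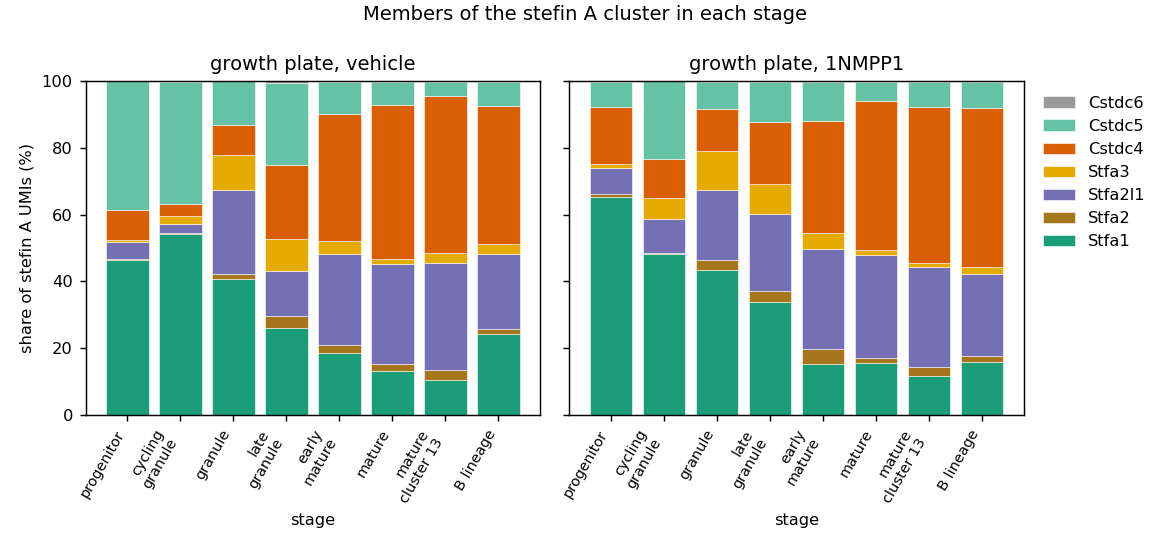
Share of family UMIs (percent) from each of the 7 members by stage and in B lineage cells, for the 2 growth plate libraries. Stfa1 and Cstdc5 fill most of the bars up to the cycling granule stage, and Cstdc4 (46.2% and 44.5%) with Stfa2l1 (29.9% and 31.0%) fills most of the mature bars.

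Each member had its own level. Cstdc4 stood at 1721 CPM in vehicle and 1346 in 1NMPP1 mature growth plate cells, and at 5.42 and 9.21 CPM in granule cells. Stfa2l1 stood at 1114 and 939 CPM in mature and 15.4 CPM in granule cells of both libraries. Stfa1 stood at 487 and 474 CPM in mature and 24.9 and 32.0 in granule cells. Cstdc5 stood at 260 and 179 CPM in mature and 8.14 and 5.95 in granule cells. These 4 genes kept that order in both mature growth plate groups.

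The other members were minor, and Stfa2 and Stfa3 differed between mature clusters 0 and 3. Stfa2 held 77.2 and 38.0 CPM in mature cells and 62.0 and 74.8 CPM in early mature cells, so the stage with more of it was not the same in the 2 libraries. Stfa2 was higher in mature cluster 3 (131 and 63.2 CPM) than in mature cluster 0 (31.2 and 21.4 CPM). Stfa3 was higher in early mature cells (95.3 and 84.4 CPM) than in pooled mature cells (58.9 and 42.7 CPM). The intervals did not overlap in either library. Mature cluster 3, however, held 101 and 82.8 CPM of Stfa3, beside 97.3 and 79.2 in early mature cluster 2. The lower pooled level was that of mature cluster 0, with 23.1 and 16.2 CPM. In mature cluster 13 Stfa3 held 110 and 35.3 CPM. Cstdc6 was the least abundant, with 6.5 and 5.85 CPM in mature cells. All 7 members measured in the mature-over-granule comparison were past 1.5-fold in both growth plate libraries, where 27.5% and 28.2% of all genes measured were as well. Nothing is read from that count, since the members were chosen for this pattern. The median log2 ratio of the members was 6.11 in vehicle and 4.67 in 1NMPP1, against -0.10 for all genes in both. With Cstdc6, which had 43 UMIs in mature and 0 in granule vehicle cells, set at its lower bound (at least 18.4-fold higher, from a floor of 3 counts over the group), the vehicle median was 4.99.

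Family UMIs were spread very unevenly over cells of a stage. Of the 1589 vehicle mature cells, 33.7% had no member UMI and 37.0% (34.6% to 39.4%) had at least 10, and of the 1953 1NMPP1 mature cells 37.2% had none and 34.2% (32.1% to 36.4%) had at least 10. The 158 highest vehicle and 195 highest 1NMPP1 mature cells held 51.3% and 54.0% of all family UMIs. The highest mature cells held 174 and 266. Late granule cells were more uneven: 60.7% and 61.3% had none, and the highest 51 of 516 and 66 of 666 held 87.1% and 84.2%. In granule and earlier stages between 1.04% and 4.98% of cells had at least 10. B lineage cells with at least 10 numbered 3 of 1469 and 2 of 1752.

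**Figure D3:**
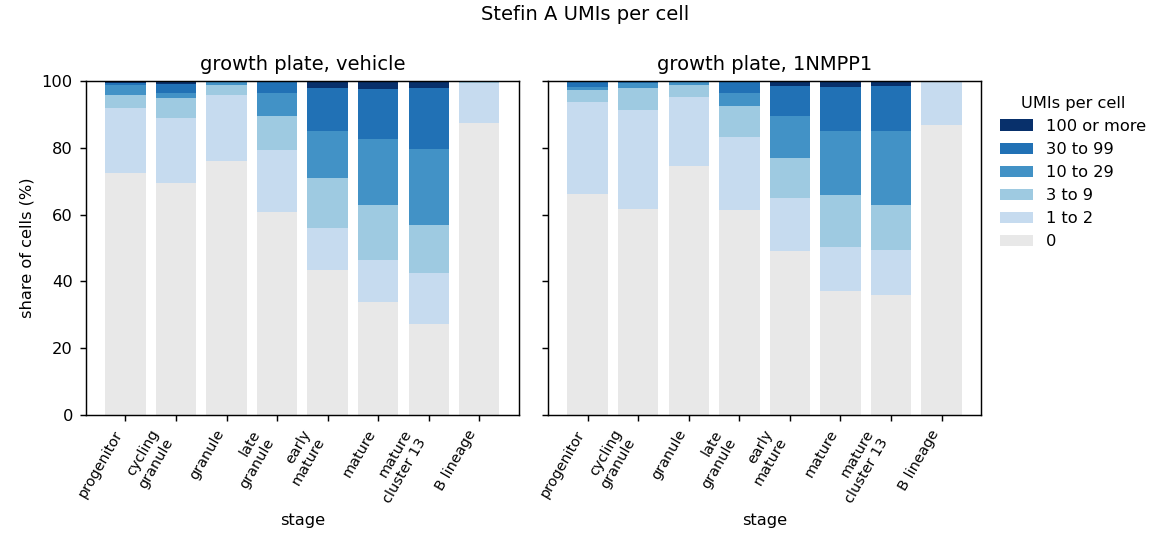
Share of cells (percent) by their number of family UMIs, for each stage and B lineage cells of the growth plate libraries. Cells with no member UMI and cells with 10 or more stand side by side in the mature bars, at 33.7% and 37.0% in vehicle and 37.2% and 34.2% in 1NMPP1.

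Other genes of the same level were seen in far more cells. Cstdc4, at 1721 CPM, was seen in 40.7% of vehicle mature cells, whereas the 35 other genes within 1.25-fold of its level were seen in 73.1% to 98.0% (median 94.97%). Stfa1, at 487 CPM, was seen in 15.0%, against 43.2% to 82.4% for 179 genes of like level. Cstdc5, at 260 CPM, was seen in 9.25%, against 20.4% to 67.6% for 263 such genes. Stfa2 was seen in 6.61%, below all 615 genes of its level. Stfa2l1 was seen in 45.9%, with Ccl4, a chemokine gene, alone at or below it among 74, and Stfa3 in 5.29%, with Olfm4, known to mark a subset of neutrophils, alone at or below it among 701. Cstdc6 was the exception: its 2.01% was in the range of 890 like genes, 101 of which were as low or lower. In the 1NMPP1 library Cstdc4 was seen in 37.8% against 40.8% to 97.3% for 58 like genes, and no gene was at or below Stfa1, Stfa2, Stfa3, Cstdc4 or Cstdc5, while Ccl4 was again at or below Stfa2l1. Likewise, in the ganglia no gene of like level was at or below Stfa1, Cstdc4 or Cstdc5 in either mature group (Cstdc4: 38.3% of 209 and 27.2% of 268 cells).

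**Figure D4:**
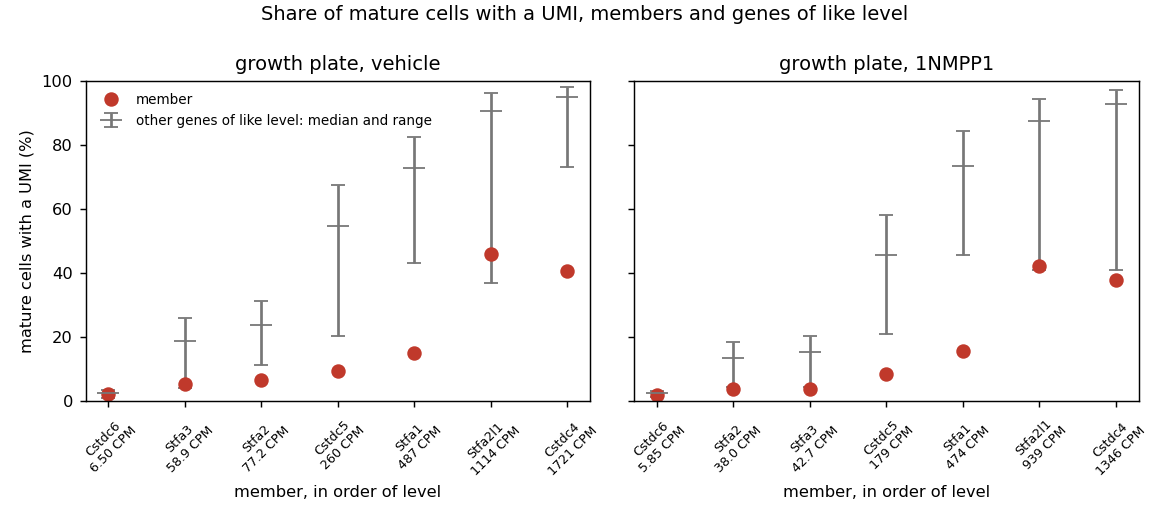
Share of mature growth plate cells with a UMI (percent) for each measured member (red) and, in grey, the median and range of all other genes within 1.25-fold of its level, members in order of CPM. All members but Cstdc6 lie at or near the bottom of the grey ranges or below them.

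In single cells 1 member usually supplied most of the UMIs. Among mature cells with at least 10, the leading member held a median of 72.9% (vehicle) and 72.2% (1NMPP1) of that cell's family UMIs, although the leading gene of the pooled cells, Cstdc4, held 46.2% and 44.5%. Of those 588 and 668 cells, Cstdc4 led 292 and 308, Stfa2l1 183 and 220, Stfa1 76 and 99, Cstdc5 29 and 24, Stfa3 5 and 8, and Stfa2 3 and 9. In early mature cells with at least 10 UMIs the median was 89.5% and 90.9%, and of the 9 and 11 granule cells that qualified, 8 and 8 had at least 90% from 1 member. The order of leading members in mature cells was thus the order of their CPM down to Cstdc5. Cstdc6 led no cell with at least 10 family UMIs in any stage, and cells with fewer were not examined for a leading member.

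Mature growth plate cells with 1 member more often held others too, Cstdc6 with its few cells apart, although many held 1 member alone. Counting a member in a cell from 3 UMIs up, 26.0% and 25.2% of mature growth plate cells had 1 member, 18.9% and 17.0% had 2, and 5.41% and 4.15% had 3. Stfa2l1 was counted in 60.4% of vehicle cells with Cstdc4 and 22.4% of those without, and in 57.8% and 20.1% in the 1NMPP1 library. Cstdc5 was counted in 19.8% of vehicle cells with Stfa1, its near-copy, and in 5.06% of those without, and in 17.0% and 3.38% in the 1NMPP1 library. Most cells with Stfa1 thus had fewer than 3 UMIs of the gene whose transcript is 98.1% identical to it. Stfa2 cells held Cstdc5 in 38.8% of 49 and 38.2% of 34 cells. In vehicle early mature cells most pairs went the same way, but Stfa2l1 was counted in 23.1% of cells with Stfa1 and 21.7% of those without. In vehicle ganglion mature cells Stfa3 was counted in none of the 22 cells with Stfa1 and in 3.21% of those without. Deeper cells have more UMIs of every gene, and the part of depth in these shares was not tested.

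Mature cells with at least 10 member UMIs and those with none differed in few other genes. In vehicle, 588 and 535 such cells were compared over 2106 genes with at least 300 UMIs, and 20 (0.9497%) differed by 1.5-fold or more. Of these, 3 passed 2-fold, and all 3 were lower in the cells with stefin A: Chil3 (log2 ratio -1.13), a secretory chitinase-like gene of granule-stage cells, and the mitochondrial genes mt-Nd1 (-1.23) and mt-Nd2. In 1NMPP1, 668 and 727 cells were compared over 2645 genes, 7 passed 1.5-fold and none 2-fold, with Chil3 at -0.09 and mt-Nd1 at -0.63. The granule genes Camp (-0.76 and 0.02) and Ltf (-0.53 and 0.27) also differed between the libraries. The mature markers Cxcr2 (0.01 and 0.00), Retnlg (0.14 and 0.11) and Il1b (-0.04 and -0.18) differed little in either library. The cells with stefin A were deeper, with medians of 4335 against 3381 UMIs in vehicle and 4745 against 3905 in 1NMPP1.

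Early cells with many member UMIs were few, and among progenitor-like cells they carried more RNA of mature cells. Among vehicle progenitor-like cells, 16 of 394 had at least 10 family UMIs (4.06%, interval 2.34% to 6.51%), and 1 of them held 438 of the 1161 UMIs of the group. Among 1NMPP1 progenitor-like cells there were 11 of 423 (2.60%, 1.31% to 4.60%). The summed level of Retnlg and Cxcr2, genes of mature cells, was 1078 CPM in the 16 vehicle cells against 197 in the rest, and 1274 against 207 CPM in 1NMPP1. The whole mature set, of which these 2 genes are a part, was at 1975 against 812 CPM with vehicle and 2257 against 832 with 1NMPP1. The primary-granule genes together were at 12722 against 27393 CPM, and at 10430 against 26129. All but 1 of the vehicle cells, and all 11 of the 1NMPP1 cells, had a UMI of Retnlg or Cxcr2. The other progenitor-like cells had median depths of 25077 and 31663 UMIs, so a UMI of these genes was likely in them too. Their share was not counted, and nothing is read from these counts. In cycling granule cells with at least 10, Retnlg and Cxcr2 stood at 774 against 331 and 1105 against 319 CPM. The whole mature set differed less there, at 1368 against 1159 and 1968 against 1117 CPM. With vehicle, the mature set without Retnlg and Cxcr2 was lower in these cells than in the rest. The primary-granule genes were at 577 against 363 and 292 against 314. In granule cells Retnlg and Cxcr2 were at 2278 against 1970 CPM with vehicle and 4717 against 1922 with 1NMPP1. The whole mature set was at 4650 against 4265 and 7289 against 4299 CPM in granule cells. Stfa1 or Cstdc5 led 11 of the 16 and 9 of the 11 progenitor-like cells, and 20 of 21 and 8 of 9 cycling granule cells. The part of RNA from mature cells in these barcodes was not tested.

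The 1NMPP1 and vehicle growth plate libraries were compared stage by stage. In mature cells the family sum was 3026 CPM with 1NMPP1 and 3724 with vehicle, a log2 ratio of -0.30 (-0.32 to -0.27). In early mature cells the ratio was -0.53 (-0.57 to -0.49), and in mature cluster 13 it was -0.32 (-0.38 to -0.26). None of these passed 1.5-fold, a log2 of 0.58. The early mature ratio did so under 5 of 11 alternatives, to -0.65, and was 0.26 within female-called cells. That of the class named by its interferon set ranged from -1.04 to 0.73, above 0 in 3 of 12. Under other clusterings this class was not cluster 13 with its 188 and 500 cells. It held 28 and 100 cells with at least 500 genes per barcode, and 1367 and 1996 at Leiden resolution 0.5. Of the 7 members in mature cells, Stfa2 alone was lower by 1.5-fold or more (log2 -1.02), where 4.71% of all genes were, and Cstdc4 was at -0.35, Stfa2l1 at -0.25, Stfa1 at -0.04 and Cstdc5 at -0.54. In early mature cells Stfa1 (-0.80) and Cstdc4 (-0.72) were lower by 1.5-fold, 2 of 7 against 3.50% of all genes. All genes had a median log2 ratio of 0.06 in mature and 0.07 in early mature cells.

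The early stages differed more, on few cells. The ratio was -1.26 in progenitor-like, -1.90 in cycling granule, 0.26 in granule and -0.97 in late granule cells. In granule cells it was below 0 under 5 of 12 alternatives, to -0.40 with no doublet removal. Lower by 1.5-fold were 3 of the 4 members measured in progenitor-like cells (3.53% of all genes), 2 of 5 in cycling granule cells (3.11%) and 5 of 6 in late granule cells (4.42%). In granule cells 2 of 6 were higher (6.54%). Cstdc5, uncertain as a single gene, had the widest gap, with log2 ratios of -3.64, -2.55 and -1.98 in progenitor-like, cycling granule and late granule cells. Few cells carried it, in the late granule stage 7.17% with vehicle and 6.31% with 1NMPP1. The leave-out ratios below are of the family sum, and Cstdc5 alone was not taken again without the highest cells. A single vehicle late granule cell held 1297 of that group's 3265 family UMIs. Without the highest cell of each library the late granule ratio was -0.39 and the progenitor-like ratio -0.76; without the 5 highest cells they were -0.36 and -0.53, both inside 1.5-fold, and the cycling granule ratio was -1.45. Vehicle cycling granule cells with at least 10 UMIs numbered 21 of 422 (4.98%, 3.11% to 7.51%), against 9 of 431 with 1NMPP1 (2.09%, 0.959% to 3.93%). With no barcode removed as a doublet the cycling granule ratio was -0.49, and with at least 500 genes per barcode the progenitor-like ratio was -0.30, both inside 1.5-fold.

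**Figure D5:**
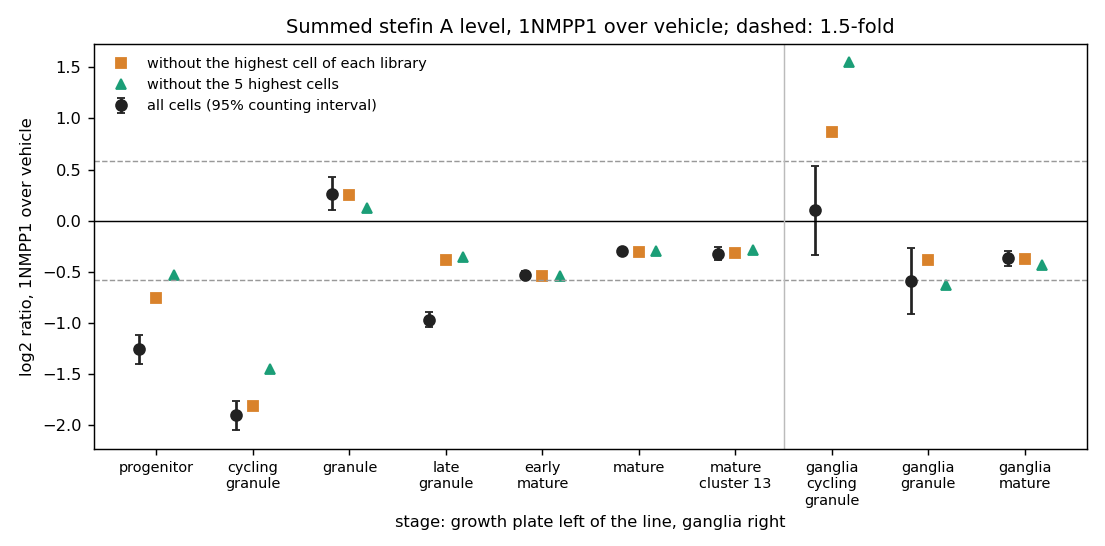
Log2 ratio of the family sum, 1NMPP1 over vehicle, by stage: all cells with the exact 95% counting interval (black), without the cell with the most family UMIs in each library (orange) and without the 5 highest cells (green), dashed lines at 1.5-fold. The late granule point moves from -0.97 to -0.39 when 1 cell per library is left out, and the mature point stays at -0.30.

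The make-up of the libraries differed with the treatment label. Male-called cells were 46.8% of vehicle and 22.7% of 1NMPP1 growth plate neutrophils, and female-called cells 9.90% and 27.2%. Within male-called mature cells the family ratio was -0.28 and within female-called ones -0.52. The B lineage background was also lower with 1NMPP1 (16.4 against 21.5 CPM). The share of neutrophils in mature cluster 13 was 3.93% in vehicle and 8.25% in 1NMPP1.

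In the ganglia, mature cells held 2598 CPM with vehicle (209 cells) and 2010 CPM with 1NMPP1 (268 cells), a log2 ratio of -0.37 (-0.45 to -0.29). Within the 109 and 39 male-called mature cells it was -0.46, and within the 10 and 37 female-called ones it was 1.05, the opposite direction. Over all ganglion neutrophil stages the values were 960 and 695 CPM. Cells with at least 10 family UMIs were 40.2% (33.5% to 47.2%) and 24.6% (19.6% to 30.2%) of the mature cells, beside median depths of 6066 and 3428 UMIs per cell. With mature cells thinned to 1000 UMIs, a member was seen in 46.9% and 42.6%. The mature mix was as in the growth plate, with Cstdc4 at 50.6% and 41.6% of family UMIs and Stfa2l1 at 26.8% and 28.2%. Of 6 members measured, Cstdc4 (-0.65), Stfa2 (-0.74) and Stfa3 (-2.14) were lower by 1.5-fold, where 8.33% of all genes were, and Cstdc5 (0.95) was higher, where 14.3% were. The gap in Stfa3 rested on 117 and 18 UMIs, and that in Stfa2 on 20 and 8.

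Ganglion granule cells held 154 and 102 CPM and cycling granule cells 72.9 and 78.3 CPM. These came from 215 and 133 UMIs in 104 and 164 granule cells and from 110 and 76 UMIs in 49 and 50 cycling granule cells. A single vehicle cycling granule cell held 62 of the 110 UMIs, and without the highest cell of each library the ratio was 0.87 instead of 0.10. All 6 and 5 members measured were higher in mature than in granule cells by 1.5-fold, where 29.4% and 30.1% of all genes were. Nothing is read from these counts, since the members were chosen for this pattern and Stfa2 with vehicle was measured through its 20 UMIs in mature cells alone, at least 6.19-fold higher than in granule cells, where it had 0.

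Other cystatins, proteases and inhibitors were read from lists chosen with earlier results known. In mature over granule growth plate cells, 4 of 6 measured other cystatins were higher by 1.5-fold in both libraries. Of all genes measured, 27.5% and 28.2% were higher, and 32.8% and 32.3% were lower. Csta3, a neighbour of the members, stood at 27.8 and 17.3 CPM in mature cells against 1 UMI in each granule group. Csta2 had log2 ratios of 3.65 and 4.31. The general cysteine protease inhibitor Cstb had 1.90 and 2.00, and the secreted cystatin C gene Cst3 had 0.89 and 0.99. Ngp, a granule protein of the cystatin fold, was lower (-3.91 and -4.59). Cst7 was lower by 1.5-fold with vehicle, and below 0 but inside 1.5-fold with 1NMPP1. Csta1, just outside the cluster, had 0 and 1 UMIs in mature cells. The Csta2 values share the uncertainty of Cstdc4, whose transcript matches it in part.

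Of 9 cysteine proteases measured, 6 were higher and 2 lower in mature than in granule cells of both libraries, where 27.5% and 28.2% of all genes were higher and 32.8% and 32.3% lower. The list's median log2 ratio was 1.83 and 1.12, against -0.10 for all genes. Ctsl, a lysosomal protease that stefin A can block, went from 26.8 and 28.1 CPM in granule cells to 183 and 196 in mature cells, and Ctss from 1.89 and 6.33 to 13.7 and 24.4. Ctsb stood at 76.6 and 75.6 CPM in granule and 67.8 and 65.8 in mature cells, inside 1.5-fold. Ctsh (-1.22 and -1.21) and Ctso were lower. Other leukocyte protease inhibitors were mixed: Slpi, an inhibitor of neutrophil elastase, was higher (2.30 and 2.18), as was Wfdc17 (7.35 and 5.92), while Serpinb1a, which blocks granule serine proteases, was lower (-3.42 and -3.81). Among genes of the cornified envelope, the skin structure in which stefin A is a known component, the transglutaminases Tgm3 (4.17 and 4.13) and Tgm1 (2.15 and 3.70) were higher at low level, the former at 24.3 and 31.8 CPM. The calgranulins S100a8 (-0.91 and -1.02) and S100a9 (-0.64 and -0.68) were lower.

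The genes whose level was most like the family sum over growth plate clusters were Il1f9, the gene of a cytokine of the interleukin-1 family (Pearson r 0.98), Nlrp12 (0.97), Asprv1, a protease gene named for skin (0.96), Amer2 (0.96) and Dhrs9, a retinol-metabolism gene (0.95). The measure was log2(CPM + 1) over 40 points, 20 clusters in each of 2 libraries, and 9105 genes were compared. Within the family, Cstdc4 and Stfa2l1 (0.97), Cstdc4 and Cstdc6 (0.97) and Stfa1 and Cstdc5 (0.97) were the closest pairs, and Stfa1 and Cstdc4 (0.86) the farthest. The points share libraries, and the members share sequence, so these values are descriptions.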

How the data were processed

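Single-cell RNA was counted in 4 libraries, 1 per group. The files the authors deposited hold raw UMI counts for each gene in each barcode. They came from Cell Ranger (version 7.2.0, per the file headers) and the mm10 build, per the submitters' processing notes; the annotation release and the use of intron reads are not stated there. Reads that match several genes can be split or dropped at that step, which bears on near-identical members. The feature lists were not the same: the vehicle growth plate library had an added feature, AAV_PHP_S, and the 1NMPP1 one had none. Both ganglion libraries had tdTomato. Added features were left out here, and any effect of this difference was not tested. Depth was 32790205 to 139703885 UMIs per library.

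From these counts, barcodes under 200 genes or over 20% mitochondrial UMIs were dropped, and the highest Scrublet doublet scores were removed at 0.8% per 1000 barcodes (731, 1115, 108 and 55 barcodes; the caller's own threshold marks 2, 414, 24 and 5). Each tissue was clustered with scanpy 1.11.5 on 2000 variable genes without the 7 members and Csta1, Csta2 and Csta3, 30 components, 20 neighbours and Leiden resolution 1. Stages were named from marker sets; a granule cluster was called cycling, and a mature one was called cluster 13 by its interferon set, where that set reached 0.5 of the top score. In the growth plate alone, clusters whose granule and mature scores were that close were split off as late granule and early mature. The ganglia were not split in this way: their mature cluster scored nearly as high for granule as for mature genes, and their granule cluster also passed 0.5 for mature genes, so stage names do not match between tissues. These rules were settled after the clusters were seen. CPM used all UMIs of a cell group. Intervals (exact Poisson, Clopper-Pearson, and conditional for ratios; 95%) cover counting error only. Log2 ratios had 0.5 UMI added. A gene was measured with 20 or more UMIs over both groups and called at 1.5-fold; with 1 library per group no p-value was computed. The ratio code was checked on simulated counts. Thinning drew 1000 UMIs per cell. All 7 members are named, as are the 5 genes most like the family sum and any measured gene of 4 lists (cystatins, cysteine proteases, other inhibitors, cornified envelope and calgranulin genes); Ccl4, Olfm4, Chil3 and the mitochondrial genes were named after their values were seen. Members and lists were chosen with earlier results of these data known. Alternatives were other clustering, filters, scaling and cell weights, cells called male or female, and, added after the data were seen, leaving out the cells with the most member UMIs. Values of the gene changed in these mice are not reported here.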

Additional observations from a re-analysis of the deposited data

Results flagged for a closer look

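The 1NMPP1 over vehicle ratio of the family sum of the 7 stefin A genes had opposite signs in the 2 tissues at 2 stages. Stages of the same name are not matched between the tissues, so unlike cells are set side by side. In cycling granule cells the log2 ratio of 1NMPP1 over vehicle was -1.90 in the growth plate and 0.10 in the ganglia. The ganglion interval, -0.34 to 0.54, spans 0, so that value shows no direction. In granule cells it was 0.26 in the growth plate and -0.59 in the ganglia. Each value compares 1 library with 1 library, and the difference between the tissues was not tested. The opposite signs were not kept under every alternative: with no doublet removal the granule values were -0.40 and 0.066, and within male-called cells the cycling granule values were -1.07 and -0.87. Without the cell with the most member UMIs in each library the ganglion values were 0.87 and -0.39.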

How the results depend on the processing

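All values are log2 ratios. The mature growth plate difference between 1NMPP1 and vehicle was negative and inside 1.5-fold under all 11 alternatives, from -0.52 to -0.28: -0.34 with CPM taken without the 20 highest genes, -0.36 with no doublet removal and -0.52 within female-called cells. In progenitor-like cells all 12 alternatives were negative: -0.31 at Leiden resolution 0.5, -0.30 with at least 500 genes, -1.10 thinned, -1.06 with cells weighed alike, -0.57 with members among the variable genes, -2.40 and -0.45 within female-called and male-called cells, and -0.76 and -0.53 without the highest cell or the highest 5. In cycling granule cells it was -1.67 thinned, -0.49 with no doublet removal, -2.26 with members among the variable genes, -1.74 and -1.07 within female-called and male-called cells, and -1.45 without the highest 5. In late granule cells it was -0.74 at resolution 2, -0.78 with 500 genes, -0.54 thinned, -0.72 with cells weighed alike, -0.79 with no doublet removal, -0.21 within male-called cells, -0.39 and -0.36 without the highest cell or 5, and reversed to 0.29 within female-called cells. In ganglion mature cells it was -1.04 at resolution 2, -0.79 with 500 genes, -0.57 thinned, -0.51 with cells weighed alike, -0.68 with no doublet removal, -0.86 with members among the variable genes, -0.46 in male-called cells, and it reversed to 1.05 in female-called cells. Over all ganglion stages it was -0.79 thinned, -0.59 with cells weighed alike and -1.02 in male-called cells, and it reversed to 1.40 in female-called cells. In ganglion granule cells it reversed to 0.033 with 500 genes, 0.066 with no doublet removal and 0.13 with members among the variable genes, and was -1.55 with cells weighed alike, -1.59 thinned and -2.14 in male-called cells. In ganglion cycling granule cells it was 1.19 thinned, 1.76 in female-called and -0.87 in male-called cells. Mature over granule in the vehicle growth plate was 5.44 without the 20 highest genes, 5.37 at resolution 2, 4.39 with 500 genes, 5.68 with cells weighed alike, 4.10 with no doublet removal, 4.71 with members among the variable genes, 5.41 and 6.18 within female-called and male-called cells, and 6.15 and 6.36 without the highest cell or 5. With 1NMPP1 it was 4.88, 4.08 with 500 genes, 5.07 thinned, 5.23 with cells weighed alike, 4.15 with no doublet removal, 4.58 with members among the variable genes, 4.69 and 6.07 within female-called and male-called cells, and 5.59 and 5.93 without the highest cell or 5; the 4.88 is without the 20 highest genes. Stage boundaries moved with clustering: resolution 0.5 gave no late granule class, no separate mature class in the growth plate and no cycling class in the ganglia. With members among the variable genes there was no late granule class, and without doublet removal no early mature class and no ganglion cycling class. The cause of these shifts was not tested. No paired analysis was possible because each group is 1 library. Stages before the late granule stage hold few member UMIs: cells with at least 10 number 9 to 21 per growth plate group, 9 and 5 among ganglion granule cells, and 2 and 2 among ganglion cycling granule cells.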

Other observations

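Csta3, which lies between Cstdc4 and Csta2, was a mature-stage gene at low level: in the growth plate it went from 2 and 1 UMIs in cycling granule cells to 3.49 and 2.17 CPM in early mature and 27.8 and 17.3 CPM in mature cells. Csta2 was already at 19.6 and 20.2 CPM in early mature cells and stood at 21.5 and 21.1 CPM in mature cells. In mature cluster 13 Csta2 held 59.6 CPM with vehicle and 22.9 CPM with 1NMPP1, from 53 and 57 UMIs. In ganglion mature cells Csta3 was at 23.3 CPM with vehicle and 6.72 CPM with 1NMPP1, from 35 and 7 UMIs. These genes are no members of the set and were looked at because they neighbour it.

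Small clusters of other cells in the growth plate libraries also carried member UMIs. Monocyte cluster 21 held 41.1 and 163 CPM, from 17 and 41 UMIs, and erythroid cluster 22 held 76.2 and 93.7 CPM, from 20 and 36. The 24 vehicle endothelial cells held 143 CPM (108 to 186) and the 20 1NMPP1 ones 21.04 CPM, from 55 and 15 UMIs. Cstdc4 led in vehicle at 67.7 CPM. How these UMIs were spread over single barcodes, and the part of free RNA in them, was not tested. Chondrocytes held 19.9 and 22.1 CPM, near the B lineage values of 21.5 and 16.4 CPM. Ganglion fibroblasts and macrophages held 0 member UMIs in both libraries, which allows up to 3 counts in each group.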
